A study of Mus musculus with 8 samples.

Results

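The genes described here take glutamate up from the extracellular space, turn it into glutamine and carry glutamine out of the cell, together with a pair of metabotropic glutamate receptors of glial cells. The set has 8 genes, Slc1a2, Slc1a3, Slc38a3, Slc38a5, Glul, Glud1, Grm3 and Grm5, of 18194 genes named on the array. All probe sets whose platform annotation named 1 of these genes were taken, which gave 21 of 45101 probe sets. The genes were chosen with earlier results of these data known. Of the 21 probe sets 15 passed the filter on low signals, a mean log2 value of 3.83, and 6 did not. The 15 belonged to 6 of the genes. Slc38a5 and Grm5 had no probe set above the filter, so only 6 of 13174 tested genes are members.

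The 8 samples, labelled as total RNA of mouse cerebral cortex, were each hybridised to an Affymetrix array, 2 arrays per group. The groups were FGF2 with SB202190, FGF2 with U0126, FGF2 alone and vehicle. Fibroblast growth factor 2 (FGF2) is a mitogen of astrocytes, U0126 inhibits the MEK kinases upstream of ERK, and SB202190 inhibits p38 kinases. Both inhibitor groups also received FGF2, and neither inhibitor was given without it in the arrays used here. The sources used here do not give doses, times, strain or age, nor whether the RNA came from cultures or tissue. The series title names an astroglial gene expression program. Replicate 2 of FGF2 with SB202190 carried a treatment type, acclimatization, that differed from the term wait on the other 7 labels.

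In the brain, astrocytes clear most synaptic glutamate through sodium-driven transporters. Glutamine synthetase then joins glutamate with ammonia to form glutamine. Glutamine leaves the astrocyte through system N carriers and returns to neurons, where it is made into glutamate again, and this exchange is known as the glutamate-glutamine cycle.

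Array medians ran from 22.3 to 27.8, and replicates correlated with r of 0.980 to 0.984 over the tested genes, against 0.947 to 0.981 between arrays of different groups. All 12 astrocyte markers of a fixed list were above the filter. Of 12 neuron markers 7 were above the filter, among them Stmn2, Map2 and Tubb3, and the list summed to 1938 to 2694, mostly from Stmn2 and Map2. Rbfox3, Slc17a7 and Dcx of that list were under it, with group means of 2.24 to 22.5. Of 9 microglia markers 4 were above the filter, Cd68, Csf1r, C1qb and Tyrobp, and the list summed to 273 to 402. Of 6 endothelial markers 3 were above it, Kdr, Cdh5 and Flt1, and the list summed to 87.3 to 170. Of 5 oligodendrocyte markers on the array Cnp, with group means of 1519 to 2440, and Mbp were above it. Mog, Mag, Aif1 and Pecam1 of these lists were under it, with group means of 0.742 to 8.50, and none of the markers named here was listed at 0. The labels do not say that replicates were separate cultures or animals, so p-values cover only the spread among these samples, and this may be technical. In such bulk RNA, fewer cells of a type and less RNA per cell cannot be told apart.

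Signals below are the deposited intensities, given as replicate 1 and replicate 2. Log2 changes ± SE come from quantile normalized values, and calls were made with limma over all 13174 genes, at a threshold of 0.05 for adjusted p. A gene was tested through its probe set with the highest mean. Where the arrays of groups are said to lie apart, this describes the values only. The share of all genes whose arrays part so was not counted. Signals of different probe sets depend on their probes and are not set against each other for the members. The marker sums do add different probe sets, so bright ones weigh most in them.

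FGF2 lowered the transcripts of both astrocyte glutamate transporters, of the glutamine exporter Slc38a3 and of glutamine synthetase, while glutamate dehydrogenase stayed uncalled. Of the 6 tested members 4 fell against vehicle and 0 rose, also at an unadjusted p under 0.05. The median log2 change of the 6 was -0.69, against -0.00 over all genes. It takes in Grm3, at -1.43, which passed the filter through its vehicle arrays, so this median supports nothing. In this comparison 37.9% of all tested genes were called, 18.9% higher and 19% lower. With arrays centred on their medians, which put the median of all genes at 0.16, the 4 stayed called at -0.60 for Slc1a2, -0.22 for Slc1a3, -0.38 for Slc38a3 and -0.44 for Glul. The inhibitors differed between the genes. Slc1a3 and Slc38a3 were higher with U0126 than with FGF2 alone, and Slc1a2 and Glul were not called in either inhibitor comparison.

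**Figure D1:**
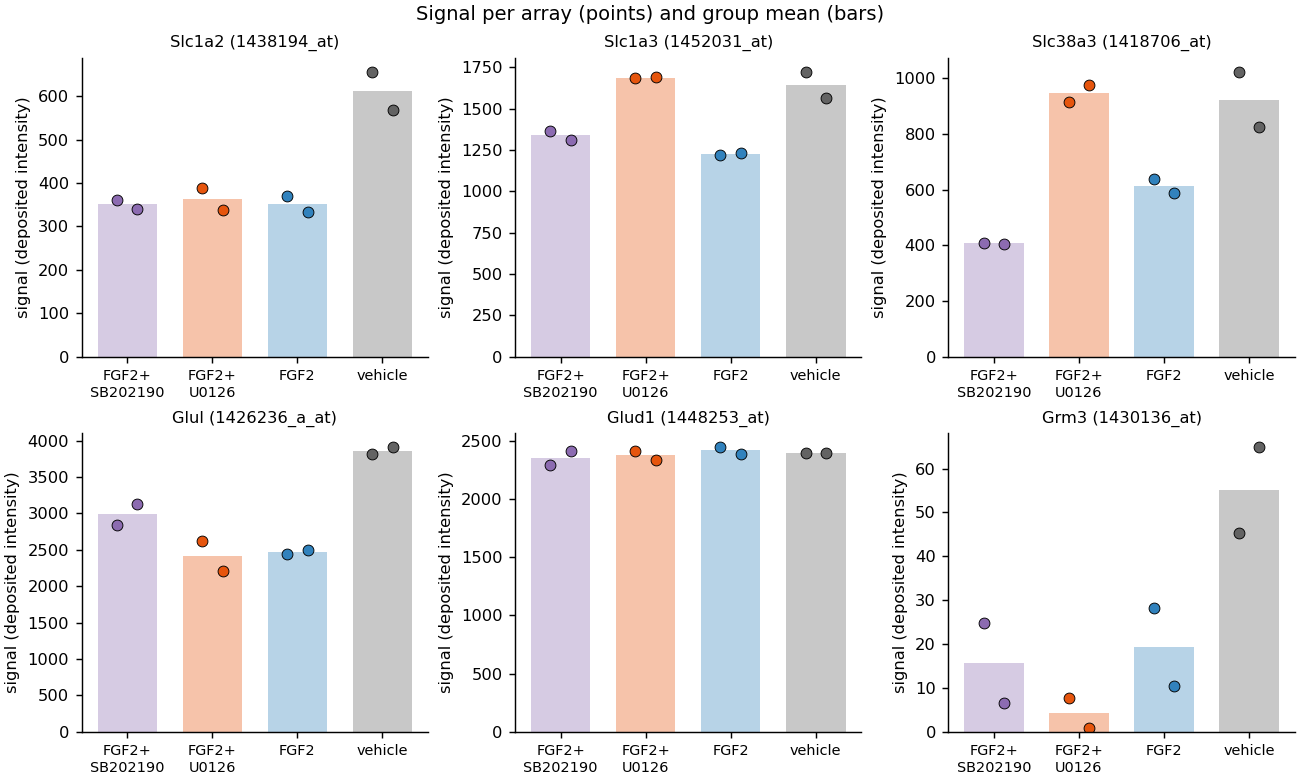
Deposited signal (y axis, intensity, a scale per panel that starts at 0) of the probe set that stood for each of the 6 tested members, by group on the x axis. Points are single arrays and bars are means of 2 arrays. With vehicle every array of Slc1a2 and Glul was above every other array of that panel. Grm3 did the same, but it passed the filter through its vehicle arrays, so this supports nothing. The share of all genes that part in this way was not counted. Slc1a3 and Slc38a3 with FGF2 and U0126 lay in the range of vehicle, and Glud1 lay between 2294 and 2442 on all arrays.

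Slc1a2 encodes GLT-1 (EAAT2), the main glutamate transporter of mature forebrain astrocytes. Its signal was 362 and 340 with FGF2 and SB202190, 388 and 337 with FGF2 and U0126, 369 and 334 with FGF2 alone, and 655 and 568 with vehicle. The 6 arrays with FGF2 overlapped each other and all lay below both vehicle arrays. With FGF2 the signal averaged 351 ± 24.9, against 612 ± 61.2 with vehicle (SD, n = 2 each), a log2 change of -0.83 ± 0.10 (limma, adjusted p = 3.08e-05) and a 1.77-fold decrease on the normalized scale. The change against vehicle was -0.79 ± 0.10 with U0126 present and -0.82 ± 0.10 with SB202190 present, and both were called lower. Against FGF2 alone the 95% interval of the change was -0.19 to 0.25 with U0126 and -0.22 to 0.23 with SB202190.

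The other Slc1a2 probe sets were dim. Probe set 1451627_a_at read 18.8 and 18.8 with FGF2, against 35.6 and 56.4 with vehicle. Probe set 1439940_at read 27.1 and 32.0 with FGF2, against 44.2 and 49.8 with vehicle. FGF2 arrays were below vehicle arrays on both, and neither was called, at adjusted p = 0.0731 and 0.300 in the limma fit of every probe set. The order of these arrays adds no support, as the share of all probe sets that part so was not counted. Probe sets 1433094_at and 1459014_at were below the filter, at 0.845 to 14.8. When all probe sets of the gene were averaged, the Slc1a2 change against vehicle was -0.25 and no longer called (adjusted p = 0.600), where adjusted p over all alternatives ran from 6.07e-06 to 0.600.

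Slc1a3 encodes GLAST (EAAT1), the glutamate transporter of radial glia and of astrocytes from early development on. It was lower with FGF2 alone and lay within the vehicle range with FGF2 and U0126. Signals were 1366.5 and 1310 with FGF2 and SB202190, 1683 and 1692 with FGF2 and U0126, 1221 and 1235 with FGF2 alone, and 1720 and 1563 with vehicle. Both U0126 arrays lay between the vehicle arrays, and both FGF2 arrays were the lowest of the 8. FGF2 changed it by -0.46 ± 0.06 against vehicle (limma, adjusted p = 9.19e-05). U0126 changed it by 0.48 ± 0.06 against FGF2 alone (limma, adjusted p = 1.94e-04), and this call was lost only when probe sets were averaged (0.33, adjusted p = 0.166). With U0126 it differed from vehicle by 0.02, with a 95% interval of -0.12 to 0.16, but with median centring this difference was 0.25 and called higher (adjusted p = 0.0274). With SB202190 it was below vehicle by -0.34 ± 0.06, a call lost with median centring (-0.09, adjusted p = 0.455), and its change against FGF2 alone was 0.12 ± 0.06 (limma, adjusted p = 0.380). U0126 exceeded SB202190 directly by 0.36 ± 0.06 (limma, adjusted p = 0.00153).

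Slc1a3 had 5 probe sets above the filter, which agreed in direction for FGF2 but not in size. When every probe set was tested on its own, 4 of the 5 were lower with FGF2 than with vehicle. Over all probe sets that fit called 32% in FGF2 against vehicle, 17.4% in U0126 against FGF2 and 2.04% in SB202190 against FGF2. Probe set 1443749_x_at, of a type that can also bind other transcripts, read 632 and 686 with FGF2, against 1285 and 1324 with vehicle, a log2 change of -0.998 ± 0.07. Probe set 1426341_at read 1304 and 1469 with FGF2, against 1483 and 1514 with vehicle, and its change of -0.13 ± 0.07 was not called. The 95% intervals of these 2 probe sets did not meet. With U0126, 4 of the 5 were higher than with FGF2 alone, between 0.25 and 0.92. With SB202190 only 1443749_x_at was called against FGF2 alone, at 787 and 857, against 632 and 686 with FGF2 (0.32 ± 0.07, limma, adjusted p = 0.0436), and 1426341_at had the opposite sign, -0.19 ± 0.07, without a call. Probe set 1440491_at was below the filter.

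**Figure D2:**
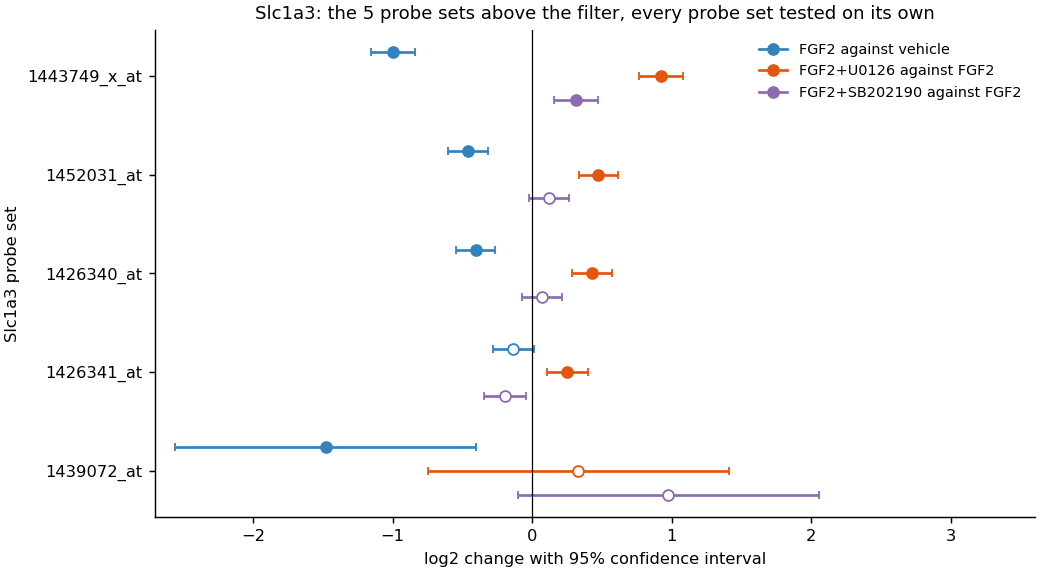
Log2 change (x axis) of each of the 5 Slc1a3 probe sets above the filter (y axis), tested on their own, for FGF2 against vehicle (blue), FGF2 with U0126 against FGF2 (orange) and FGF2 with SB202190 against FGF2 (purple). Bars are 95% confidence intervals and filled points passed the threshold. The change with FGF2 ran from -0.998 to -0.13 among the 4 bright probe sets, and 1439072_at, with signals of 6.13 to 43.4, had the widest intervals.

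Promoters are shown for Slc1a3, which FGF2 lowered and U0126 raised, for Glul, which FGF2 lowered and U0126 left uncalled, and for Glud1, which was not called in these comparisons. Each run is the 250 bases before the gene's start in RefSeq on build GRCm38.p6, 5′ to 3′ on the strand of the gene. RefSeq entries were matched for 6 of the 8 members. Capitals mark matches on either strand to the motifs searched.
Slc1a3 (chr15:8710808-8711057, minus strand): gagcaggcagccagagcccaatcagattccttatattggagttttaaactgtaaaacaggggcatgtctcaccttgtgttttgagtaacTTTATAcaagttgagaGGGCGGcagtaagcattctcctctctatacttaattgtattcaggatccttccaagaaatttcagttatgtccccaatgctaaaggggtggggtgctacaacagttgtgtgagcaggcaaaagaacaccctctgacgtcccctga
Glul (chr1:153899679-153899928, plus strand): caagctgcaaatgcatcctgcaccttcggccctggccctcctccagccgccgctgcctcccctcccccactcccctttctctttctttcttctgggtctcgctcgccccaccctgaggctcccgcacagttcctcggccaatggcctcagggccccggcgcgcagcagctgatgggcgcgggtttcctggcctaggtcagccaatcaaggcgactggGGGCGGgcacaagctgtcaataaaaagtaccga
Glud1 (chr14:34310477-34310726, plus strand): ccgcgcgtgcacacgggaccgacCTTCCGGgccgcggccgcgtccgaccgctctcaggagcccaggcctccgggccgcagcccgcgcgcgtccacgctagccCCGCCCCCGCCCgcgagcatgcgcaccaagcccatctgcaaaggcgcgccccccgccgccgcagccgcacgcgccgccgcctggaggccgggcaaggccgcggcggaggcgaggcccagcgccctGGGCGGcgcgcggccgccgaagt
The search covered windows of 300 bases that run 50 bases past the start, and positions count from 0 at the start. The AP-1 motif TGANTCA was in 0 of the 6 member windows and in 7.81% of 32851 windows of all genes. The CRE motif TGACGTCA was in 0 member windows and in 1.79% of all. The ETS motif CCGGAAG was in the Glud1 window, at -227, and in 8.86% of all. The Sp1 motif GGGCGG was in 5 member windows, all but that of Slc1a2, and in 35.7% of all. It lay at -145 in Slc1a3, at -33 in Glul, and at -148, -142 and -23 in Glud1. The TATA motif TATAAA was at -161 in Slc1a3, in no other member window, and in 13.6% of all. The E-box CACGTG was in the Slc38a5 window alone among members and in 7.15% of all. The share of G and C was 45.33% for Slc1a3, 64.33% for Glul and 81.0% for Glud1, against a median of 52.67%. These letters describe the sequence and show no binding.

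Slc38a3 encodes SNAT3 (SN1), the system N carrier through which astrocytes release glutamine. It was the member that the inhibitors moved in opposite directions. Signals were 409 and 405 with FGF2 and SB202190, 917 and 976 with FGF2 and U0126, 640 and 590 with FGF2 alone, and 1022 and 826 with vehicle. The U0126 arrays lay between the vehicle arrays, the FGF2 arrays below them, and the SB202190 arrays below those. FGF2 changed it by -0.60 ± 0.09 against vehicle (limma, adjusted p = 2.15e-04), and U0126 by 0.61 ± 0.09 against FGF2 alone (limma, adjusted p = 5.02e-04). With U0126 it differed from vehicle by 0.01, with a 95% interval of -0.19 to 0.22. Over the 22 alternatives this difference ran from -0.16 to 0.25 without a call (limma, lowest adjusted p = 0.0653).

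SB202190 lowered Slc38a3 further, by -0.59 ± 0.09 against FGF2 alone (limma, adjusted p = 0.00545) and by -1.19 ± 0.09 against vehicle. U0126 exceeded SB202190 by 1.20 ± 0.09 (limma, adjusted p = 1.80e-06), called under all 22 alternatives. The call of SB202190 against FGF2 alone held under 18 of 22 alternatives, with adjusted p between 0.00260 and 0.571. It was lost without FGF2 replicate 1 (-0.53, adjusted p = 0.0727) and without replicate 2 of FGF2 with SB202190, the sample with the differing label (-0.59, adjusted p = 0.0530). It was also lost without an intensity trend in the variance (adjusted p = 0.165) and when probe sets were averaged (-0.18). The dim second probe set, 1446013_at, read 30.8 and 22.5 with SB202190, against 23.1 and 20.9 with FGF2, a change of 0.24 ± 0.30 that was not called and had the other sign. Slc38a5 encodes SNAT5, a second system N carrier. Its probe set read 0.406 to 7.86 over the 8 arrays, below the filter, and was not tested.

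Glul encodes glutamine synthetase, the enzyme that makes glutamine from glutamate in astrocytes. Signals were 2842 and 3129 with FGF2 and SB202190, 2627 and 2209 with FGF2 and U0126, 2441 and 2499 with FGF2 alone, and 3811 and 3907 with vehicle. All 6 arrays with FGF2 lay below both vehicle arrays, and the SB202190 arrays were the highest of these 6. FGF2 changed it by -0.78 ± 0.07 against vehicle (limma, adjusted p = 2.60e-06). The change was -0.77 ± 0.07 with U0126 and -0.50 ± 0.07 with SB202190, both called lower than vehicle. The SB202190 call was lost with median centring (-0.16, adjusted p = 0.138). Against FGF2 alone U0126 gave 0.02, with a 95% interval of -0.14 to 0.18.

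With SB202190 Glul read 0.28 ± 0.07 above FGF2 alone, which missed the threshold (limma, adjusted p = 0.0584). It passed under 5 of 22 alternatives, among them without either U0126 array, and adjusted p ran from 0.0147 to 0.416. Set directly against SB202190, U0126 was lower by -0.26 ± 0.07 (limma, adjusted p = 0.0204). With replicate 2 of the U0126 group left out, that call was lost (-0.13, adjusted p = 0.195), and likewise with replicate 2 of the SB202190 group left out (-0.20, adjusted p = 0.163). The call of U0126 against SB202190 held under 17 of the 22 alternatives. The second probe set, 1426235_a_at, read 344 and 327 with FGF2, against 453 and 437 with vehicle, a called change of -0.41 ± 0.09. On it SB202190, at 331 and 327, overlapped FGF2 alone, and U0126 against SB202190 gave -0.10 ± 0.09, which was not called (limma, adjusted p = 0.458).

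Glud1 encodes glutamate dehydrogenase, the mitochondrial enzyme that turns glutamate into 2-oxoglutarate. Signals were 2294 and 2415 with FGF2 and SB202190, 2410 and 2336 with FGF2 and U0126, 2442 and 2390 with FGF2 alone, and 2393 and 2397 with vehicle. The groups overlapped. FGF2 against vehicle gave -0.07 ± 0.05, with a 95% interval of -0.18 to 0.05 (limma, adjusted p = 0.376). With each array centred on its median in place of quantile normalization, the same difference was 0.21 and called higher (adjusted p = 0.0431), on a scale where the median of all genes was 0.16. On the second probe set, 1416209_at, values were 2403 and 2426 with FGF2, above 2214 and 2075 with vehicle, and the change of 0.09 ± 0.06 was not called. Against FGF2 alone it gave -0.19 ± 0.06 with U0126 (limma, adjusted p = 0.0537) and -0.17 ± 0.06 with SB202190 (limma, adjusted p = 0.212), neither called. The first probe set gave 0.03 and -0.02 there.

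**Figure D3:**
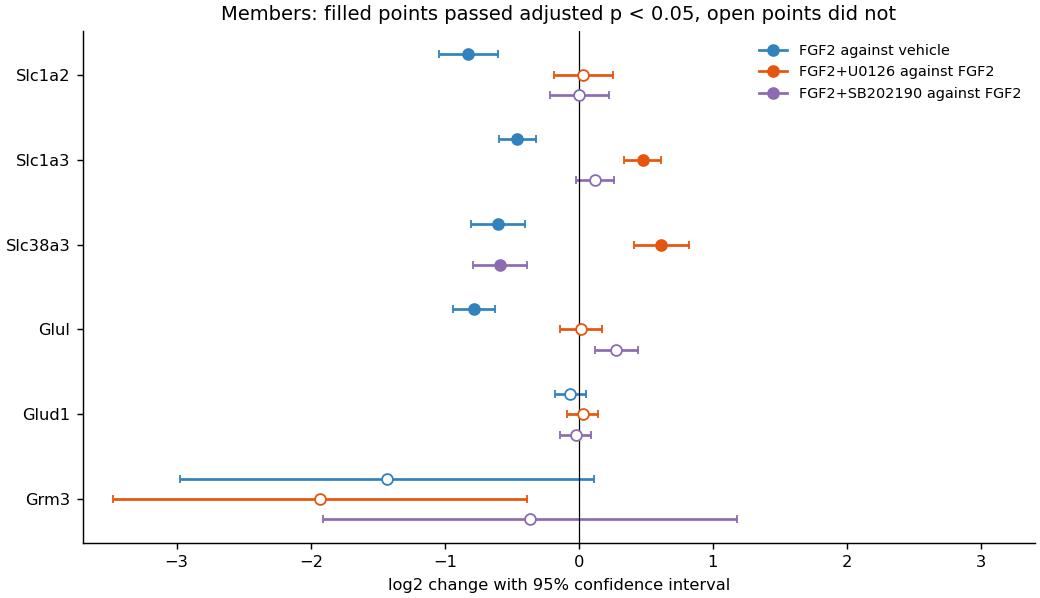
Log2 change (x axis) with 95% confidence intervals for the 6 tested members (y axis) in FGF2 against vehicle (blue), FGF2 with U0126 against FGF2 (orange) and FGF2 with SB202190 against FGF2 (purple). Filled points passed the threshold. Slc1a3 and Slc38a3 lie on opposite sides of 0 for FGF2 and for U0126, while Slc1a2 and Glul lie near 0 for U0126.

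Grm3 encodes mGluR3, a metabotropic glutamate receptor that astrocytes keep in the adult, and Grm5 encodes mGluR5, which in rodents is a receptor of immature astrocytes. Grm3 read 24.7 and 6.53 with FGF2 and SB202190, 7.80 and 0.903 with FGF2 and U0126, 28.2 and 10.4 with FGF2 alone, and 45.4 and 64.8 with vehicle. Both vehicle arrays were above the other 6, whose groups had SDs of 4.87 to 12.9 on means of 4.35 to 19.3. FGF2 against vehicle gave -1.43 ± 0.72, which was not called (limma, adjusted p = 0.138) and ran from -2.08 to -0.77 over the alternatives. With a pseudocount of 16 it was -0.95 and called (adjusted p = 0.0407), and it was also called in a fit of those arrays alone (adjusted p = 0.0280). With U0126 present the change against vehicle was -3.36 ± 0.72 (limma, adjusted p = 0.00274), with values from -4.22 to -1.75 over the 20 alternatives that kept the gene. Grm3 passed the filter through its vehicle arrays and was under it with vehicle replicate 2 left out. Its calls against vehicle, and its place in the member counts and in the median against vehicle, thus support nothing. At such low signals the size of the change depends on the pseudocount. U0126 against FGF2 alone was -1.93 ± 0.72 and not called (limma, adjusted p = 0.0711), a difference with the opposite sign to those of Slc1a3 and Slc38a3, and SB202190 against FGF2 alone was -0.37 ± 0.72. The call of U0126 against FGF2 was gained without replicate 1 of FGF2 with U0126 (-2.78, adjusted p = 0.0320). Grm5 read 0.462 to 15.4 on its 2 probe sets, below the filter.

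Counted over the 6 tested members, U0126 raised 2 and lowered 0 against FGF2 alone, and 1 was lower at an unadjusted p under 0.05. The median member change was 0.03, equal to that of all genes, and 22.1% of all genes were called. SB202190 raised 0 and lowered 1 against FGF2 alone, and at an unadjusted p under 0.05 it raised 1 and lowered 1. There 3.02% of all genes were called. Against vehicle, 3 members were lower and 0 higher with U0126, where 31.7% of all genes were called, and 4 were lower and 0 higher with SB202190, where 35.8% were called. At an unadjusted p under 0.05 there were also 0 higher in both, but with median centring 3 higher and 3 lower with U0126, and 1 higher and 3 lower with SB202190. U0126 set directly against SB202190 had 2 members higher and 1 lower, where 22.7% of genes were called. Comparisons that share FGF2 or vehicle arrays are not independent.

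Markers of several cell types also changed, not all of them in the direction of these genes. The summed signal of 12 astrocyte markers was 26244 to 28000 with FGF2, against 37540 to 37873 with vehicle. Apoe and Clu, at 9111 and 8861 with vehicle, were the largest parts of that sum. Of the 12, 10 were lower and 2 higher with FGF2, where 19% of all genes were lower and 18.9% higher. With U0126 the sum was 28679 to 29228. There 7 of the 12 were higher and 1 lower than with FGF2 alone, against 11.6% and 10.5% of all genes. With SB202190 the sum was 24434 to 25051, and 2 of the 12 were lower than with FGF2 alone, against 1.7% of all genes. Gjb6 of this list read 82.4 with vehicle and 7.91 to 9.52 in the other groups, so its vehicle arrays carried it over the filter. The shares of all genes apply to the lists below too. All 6 ependymal markers were lower with FGF2, summing to 1564 to 1599, against 3825 to 3969 with vehicle, and stood at 2316 to 2363 with U0126 and 1224 to 1257 with SB202190. Of 7 fibroblast or pericyte markers 5 were lower with FGF2, summing to 4501 to 4739, against 8843 to 8848 with vehicle. Those sums were 4405 to 4531 with U0126 and 3842 to 4367 with SB202190. Of 6 oligodendrocyte precursor markers 5 were tested, and 2 were higher and 0 lower with FGF2. The list summed to 4232 to 4370 with FGF2, against 2074 to 2081 with vehicle. Olig1, at 3212 against 1634, and Olig2, at 907 against 249, made most of that difference. Pdgfra read 143 against 131, and Sox10, Cspg4 and Gpr17 had lower means with FGF2 than with vehicle. The part of these cell types in the changes of the members was not tested.

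Other genes that handle glutamate and glutamine were taken from a list of 88, of which 76 were on the array and 62 were tested. With FGF2, 18 rose and 15 fell against vehicle, 53.2% of the 62, against 37.9% of all genes, with a median of -0.12. U0126 raised 19 and lowered 2 against FGF2 alone, 33.9%, against 22.1% of all genes, with a median of 0.20. SB202190 raised 1 and lowered 5, 9.68%, against 3.02% of all genes, with a median of -0.08. It lowered 0 without FGF2 replicate 1, 1 without FGF2 replicate 2 and 2 without replicate 2 of FGF2 with SB202190. The list thus held genes that moved in both directions with FGF2.

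Among transporters of the plasma membrane, the glutamine carriers Slc38a1 (SNAT1) and Slc38a2 (SNAT2) fell with FGF2. Slc38a1 read 1132 ± 33.6 with FGF2, against 2575 ± 72.8 with vehicle (SD, n = 2 each), a log2 change of -1.23 ± 0.07. Slc38a2 read 546 ± 16.7 with FGF2, against 1158 ± 79.2 with vehicle, a change of -1.11 ± 0.09. The neutral amino acid carrier Slc1a4 rose by 0.52 ± 0.11. The exchanger subunit Slc7a5 (LAT1), which trades glutamine for other amino acids, rose by 2.07 ± 0.09. Slc1a5, a glutamine importer related to Slc1a4, rose by 1.09 ± 0.19, but with its probe sets averaged the value was -0.23. U0126 raised Slc38a1 by 0.40 ± 0.07 against FGF2 alone, while the 0.33 ± 0.09 of Slc38a2 became -0.08 with probe sets averaged. Slc38a2 was lower with SB202190 than with FGF2 alone, by -0.36 ± 0.09, a call kept under 13 of 22 alternatives and lost with any single array of those groups left out (-0.40 to -0.33).

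In mitochondria, the glutamate carrier Slc25a18 was, like Slc38a3, lowest with SB202190. It read 399 ± 6.17 with FGF2 and SB202190, 755 ± 62.8 with FGF2 and U0126, 566 ± 14.7 with FGF2 alone, and 1226 ± 27.2 with vehicle. The changes were -1.15 ± 0.07 for FGF2 against vehicle, 0.41 ± 0.07 for U0126 against FGF2, and -0.49 ± 0.07 for SB202190 against FGF2 (limma, adjusted p = 0.00348). The last was lost without FGF2 replicate 1 (-0.47, adjusted p = 0.0553) and without an intensity trend (adjusted p = 0.139).

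Of 20 enzymes that make or break down glutamate and glutamine, 5 rose and 8 fell with FGF2, where 18.9% of all genes rose and 19% fell. Aldh18a1, which starts proline synthesis from glutamate, rose by 1.56 ± 0.08, at 742 ± 27.7 with FGF2, against 250.2 ± 10.04 with vehicle. Psat1, a serine pathway enzyme that uses glutamate as its amino donor, rose by 0.72 ± 0.06. Abat, the transaminase that breaks down GABA, changed by -0.74 ± 0.06, a call kept under 21 of 22 alternatives. Of 9 enzymes that spend glutamine 6 rose with FGF2. Asns, which makes asparagine, was at 1935 ± 115 with FGF2, against 379 ± 26.1 with vehicle (SD, n = 2 each), a change of 2.32 ± 0.09. Gfpt1, which opens hexosamine synthesis, rose by 0.56 ± 0.09 with FGF2 and was lower with U0126 than with FGF2 alone, by -0.44 ± 0.09. These calls held under 21 and 20 of 22 alternatives. Gfpt1 was also lower with SB202190 than with FGF2 alone, by -0.37, a call kept under 11 of 22 alternatives. U0126 against SB202190 gave -0.07, which was not called. Gmps, which makes GMP, rose by 0.39 ± 0.07, a call kept under 21 of 22 alternatives. Both subunits of the enzyme that joins glutamate with cysteine were higher with U0126 than with FGF2 alone, Gclc by 0.55 ± 0.06 and Gclm by 1.27 ± 0.07. With FGF2 against vehicle they had gone opposite ways, Gclc by -0.45 ± 0.06 and Gclm by 0.48 ± 0.07, both called.

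Of 10 ionotropic receptor subunits 2 fell with FGF2, a share near the 19% of all genes that fell. The AMPA receptor subunits Gria1 and Gria3 changed by -0.57 ± 0.13 and -0.52 ± 0.13. The Gria3 call held under 18 of 22 alternatives and was lost without vehicle replicate 1 (-0.43) and without FGF2 replicate 1 (-0.39). The scaffold Homer1, which binds group I metabotropic receptors, rose by 1.04 ± 0.14, and was lower with U0126 than with FGF2 alone by -0.47 ± 0.14. That U0126 call held under 16 of 22 alternatives and was lost with either FGF2 array or either U0126 array left out, at adjusted p of 0.0886 to 0.123 in limma. Atp1b2, a sodium pump subunit of astrocytes, changed by -0.47 ± 0.06 with FGF2, a call kept under 21 of 22 alternatives. Kcnj10, the Kir4.1 potassium channel of astrocytes, changed by -1.50 ± 0.12, at 296 ± 39.1 with FGF2, against 827 ± 54.4 with vehicle. No other metabotropic receptor and no vesicular glutamate transporter of the list passed the filter.

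**Figure D4:**
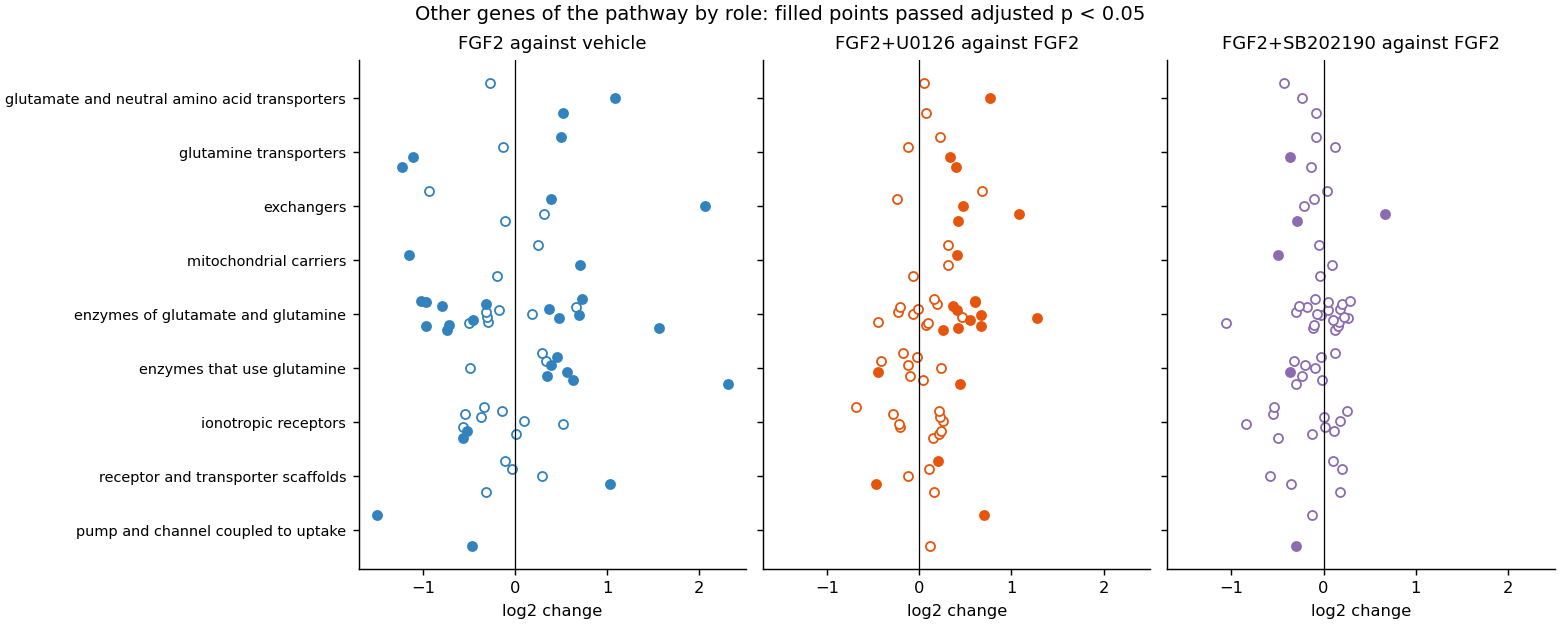
Log2 change (x axis) of the 62 tested genes of the wider list, in rows by role (y axis), for FGF2 against vehicle (left), FGF2 with U0126 against FGF2 (middle) and FGF2 with SB202190 against FGF2 (right), on a common scale. Each point is a gene and filled points passed the threshold. Enzymes lie on both sides of 0 with FGF2, and 9 of 20 were called higher with U0126.

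The genes most like each member were those with the smallest root mean square difference in log2 value over the 8 arrays, after each gene's vehicle mean was subtracted. Being picked as the smallest, these distances lie under the median in any data, so the gap to the median supports nothing. For Slc1a2 they were Mpp5, Taf9b and Adipor2, at 0.0843, 0.0884 and 0.0905, against a median of 0.763 over all genes. For Glul they were Antxr1, Btbd7 and Vwa5a, at 0.0749, 0.0759 and 0.0762, against a median of 0.674. Slc38a3 was nearest to Dbp, P3h2 and Ifitm6, at 0.129, 0.140 and 0.143, against a median of 0.734. Dbp changed by -0.65 with FGF2 against vehicle, by 0.79 with U0126 against FGF2 alone and by -0.43 with SB202190 against FGF2 alone. Dbp was chosen for its likeness over these same arrays, so the shared directions were fixed by the choice. Grm3 had no gene within 0.710, the distance of Mcoln2, against a median of 2.17. It was taken here through its U0126 call against vehicle, which supports nothing, and its distances rest on low signals.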

How the data were processed

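Total RNA of 8 samples was hybridised to 1 Affymetrix array each, per the labels. The deposited values are intensity values on a linear scale, and the algorithm and genome build the authors used are not given in the sources used here. Each array had the same mean of 150.001 after trimming 2% at each end. Of 45101 probe sets 34958 were annotated with 1 gene symbol and were named by it, while 932 with several and 9211 with none were left unnamed. No symbol was changed by a match to RefSeq.

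Values were taken to log2(value + 1.77), the 10th percentile of all values, which understates changes of low signals, and quantile normalized. Each gene was its probe set with the highest mean, kept above the 40th percentile of probe set means. limma 3.58.1 (R 4.3.3) fitted all 8 arrays at once with an intensity trend in the variance prior (degrees of freedom 8.99 prior, 4 residual), two-sided, with Benjamini-Hochberg adjustment within each of 6 comparisons. The number of arrays limits the precision.

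The member genes, the wider list, the markers and the tests were chosen with earlier results of these data known. Genes of the wider list were named from the 3 called genes with the smallest p per role and comparison, of which the text gives a part, and like genes as the 3 nearest to each member with a called change of at least 0.5. Same-numbered replicates did not deviate together (correlations of -0.03 to 0.03), so numbers were not used as pairs. Alternatives covered scaling, pseudocount, filter, variance prior, array weights, probe sets and each array left out. Promoters were read from RefSeq (GRCm38.p6), and figures drawn with Python 3.11.15.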

Additional observations from a re-analysis of the deposited data

How the results depend on the processing

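The 4 calls of FGF2 against vehicle kept their direction under all 22 alternatives, and the Slc1a2 call alone was lost under one of them, the mean of probe sets. Centring each array on its median moved the median of all genes to 0.16, with 4018 genes higher and 1479 lower, against 2489 and 2502. On that scale, with the shift left in, Slc1a2 was -0.60, Slc1a3 -0.22, Slc38a3 -0.38 and Glul -0.44, all still called, while Glud1 turned to 0.21.

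Members called in U0126 against FGF2 were 2, and 1 with the mean of probe sets. In SB202190 against FGF2 there was 1. It became 2 with a filter at the 60th percentile, with array weights or with the arrays of the comparison alone, and 0 with the mean of probe sets or without an intensity trend. At an unadjusted p under 0.05 limma then passed 0 with the mean, and 1 higher and 1 lower without the trend. Leaving out single arrays gave 0 to 2. Over all genes, SB202190 against FGF2 had 398 calls, 235 with median centring, 170 with the mean, and 0 without the trend, where 1819 had an unadjusted p under 0.05. It had 83 and 82 without FGF2 replicate 1 and 2, and 97 without replicate 2 of FGF2 with SB202190. U0126 against FGF2 had 2916, 1619 without the trend, 1782 with the mean, and 1849 and 1782 without FGF2 replicate 1 and 2. U0126 against SB202190 had 2986, 1735 without the trend, 1783 with the mean and 1805 without replicate 2 of FGF2 with SB202190. Testing every probe set gave 7663 calls in FGF2 against vehicle, where genes gave 4991. SB202190 against vehicle had 4 members called, and 2 with median centring or the mean of probe sets. U0126 against SB202190 had 3, and 1 with the mean of probe sets. The cause of these changes was not tested.

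With the replicate block, members called were 4 for FGF2 against vehicle, 3 in place of 2 for U0126 against FGF2 (Grm3 at -1.93 was added, adjusted p = 0.0373), 1 for SB202190 against FGF2, 3 for U0126 against vehicle, 5 in place of 4 for SB202190 against vehicle (Grm3 at -1.80, adjusted p = 0.0345) and 3 for U0126 against SB202190. The block changed no other member call. With 2 arrays per group, signals below the filter give no change.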
